A study of Mus musculus with 8 samples.

Results

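A set of 33 genes of S phase and DNA replication was followed through single-cell RNA profiles of mouse bone marrow. The genes were taken from a given list of symbols, and all 33 were found among the 31054 features of the count matrices. They were Mcm2, Mcm3, Mcm4, Mcm5, Mcm6 and Mcm7 (helicase), Cdc6, Gmnn, Cdc45 and Gins2 (licensing and firing of origins), Pola1, Prim1, Pcna, Rfc2, Dscc1 and Fen1 (synthesis at the fork), Rrm1, Rrm2, Tyms and Dut (nucleotide supply), Chaf1b, Uhrf1, Hells and Slbp (chromatin and histone supply), Ung, Exo1, Blm, Rad51ap1, Usp1 and Clspn (repair and fork protection), and E2f8, Cdca7 and Cdc25a (regulators). The study concerns Gli1, which acts as a transcription factor downstream of hedgehog signals, in blood-forming cells in a myelofibrosis model driven by JAK2V617F, a constantly active form of the kinase JAK2. There was 1 library for each of 4 groups: Gli1 knockout with JAK2V617F, Gli1 knockout with JAK2WT, wild type with JAK2V617F and wild type with JAK2WT. Gli1 knockout or wild type describes the donor marrow, taken from mice aged 8 weeks, and JAK2V617F or JAK2WT the retrovirus that it received. In every group the transduced cells went into irradiated female B6.SJL recipients (10.5 Gy), whose own cells may persist, and marrow was collected at 112 days. Each library pooled 3 mice, had been depleted of cells with CD11b, GR1, TER119, B220 or CD3, and mixed sorted GFP-positive and GFP-negative cells in a proportion that is not given.

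Before a cell divides it copies its genome once. In G1 the Mcm proteins are loaded at origins as an inactive ring. In S phase Cdc45 and the GINS complex turn that ring into the active helicase, polymerases follow with the clamp Pcna, and ribonucleotide reductase supplies the building blocks. Many of these genes are switched on late in G1 by E2F factors, and in bone marrow they mark the dividing progenitors of the red cell and granulocyte lines.

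A barcode counted as a cell from 500 detected genes and 1000 UMIs (counted molecules) upwards, provided that mitochondrial genes made up less than 10% of its UMIs, which gave 6490 and 3999 Gli1 knockout cells with JAK2V617F and with JAK2WT, and 3602 and 7987 wild-type cells with JAK2V617F and with JAK2WT. After removal of likely doublets 5987 and 3792 Gli1 knockout cells and 3442 and 7205 wild-type cells remained. Their median depth was 13774 and 17294.5 UMIs in Gli1 knockout cells with JAK2V617F and with JAK2WT, 13117.5 UMIs in wild-type cells with JAK2V617F and 4401 UMIs in wild-type cells with JAK2WT, the shallowest library. Gli1 had 5 and 4 UMIs in the Gli1 knockout libraries with JAK2V617F and with JAK2WT, and 2 and 0 UMIs in the wild-type libraries, too few to check the genotype. The Y-linked gene Ddx3y stood at 34.6 and 44.0 CPM (counts per 1000000 UMIs) in the Gli1 knockout libraries and at 0 CPM in both wild-type libraries, so donor sex and Gli1 genotype cannot be told apart. Clusters that met no marker rule, and so have no name, held 8.60% and 23.0% of the kept Gli1 knockout cells with JAK2V617F and with JAK2WT, and 4.27% and 27.1% of the wild-type cells. With 1 library per group no test was made. Intervals below are 95% intervals that cover counting error only, not the spread between mice.

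The promoters of the set were read first, in the 250 bases before each annotated start (RefSeq, GRCm38.p6). Entries were found for 26 of the 33 genes, and Usp1, Dscc1, Gins2, Rfc2, Exo1, Gmnn and Mcm4 had none in the table. The E2F letters TTTCCCGC, TTTGGCGC, TTTGCCGC or TTTCGCGC, searched on both strands, were present for 9 of the 26 genes (34.6%), against 2.16% of 27025 genes in the table. Those genes were Mcm5, Mcm6, Mcm7, Cdc6, Pola1, Uhrf1, Hells, Cdca7 and Cdc25a. CCAAT, the letters bound by NF-Y, were present for 18 of 26 (69.2%), against 37.5% of all genes, and TTTGAA, the letters of the CHR element found at many G2 and M genes, for 4 of 26 (15.4%), against 18.3%. The 6 windows below are shown because they span the range from several E2F matches to none and belong to genes whose values are described later, and capitals mark the matches. Mcm6 (chr1:128359706-128359955, minus strand) and Mcm5 (chr8:75109259-75109508, plus strand) each hold an overlapping pair of E2F matches, and Mcm6 a further one nearer to the start; ATTGG in capitals is CCAAT on the other strand. Cdc25a (chr9:109875329-109875578, plus strand) holds a single one. Mcm3 (chr1:20820313-20820562, minus strand) and Rrm2 (chr12:24708004-24708240, plus strand, ending before the annotated gene) hold CCAAT alone. E2f8 (chr7:48881597-48881846, minus strand) holds CCAAT and, close to the start, the CHR letters. A match is a run of letters and does not show that a factor binds.
Mcm6: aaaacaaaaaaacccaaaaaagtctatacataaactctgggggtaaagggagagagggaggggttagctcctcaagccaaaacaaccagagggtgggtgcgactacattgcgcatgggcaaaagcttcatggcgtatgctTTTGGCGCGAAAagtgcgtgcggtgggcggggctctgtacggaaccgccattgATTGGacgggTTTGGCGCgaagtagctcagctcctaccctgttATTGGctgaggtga
Mcm5: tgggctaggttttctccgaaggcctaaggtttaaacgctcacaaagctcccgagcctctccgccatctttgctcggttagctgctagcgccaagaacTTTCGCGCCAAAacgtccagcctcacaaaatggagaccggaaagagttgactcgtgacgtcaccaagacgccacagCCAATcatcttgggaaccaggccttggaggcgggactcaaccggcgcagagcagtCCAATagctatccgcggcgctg
Cdc25a: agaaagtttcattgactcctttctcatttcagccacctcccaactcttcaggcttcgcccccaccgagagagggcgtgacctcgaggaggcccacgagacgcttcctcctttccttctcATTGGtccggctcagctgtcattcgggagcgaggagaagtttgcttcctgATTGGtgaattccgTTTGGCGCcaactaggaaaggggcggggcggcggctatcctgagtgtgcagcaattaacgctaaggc
Mcm3: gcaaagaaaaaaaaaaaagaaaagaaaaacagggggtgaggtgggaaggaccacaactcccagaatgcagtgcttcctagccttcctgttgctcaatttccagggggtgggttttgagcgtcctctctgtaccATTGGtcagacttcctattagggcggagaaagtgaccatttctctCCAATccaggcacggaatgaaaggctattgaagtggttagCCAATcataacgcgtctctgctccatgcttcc
Rrm2: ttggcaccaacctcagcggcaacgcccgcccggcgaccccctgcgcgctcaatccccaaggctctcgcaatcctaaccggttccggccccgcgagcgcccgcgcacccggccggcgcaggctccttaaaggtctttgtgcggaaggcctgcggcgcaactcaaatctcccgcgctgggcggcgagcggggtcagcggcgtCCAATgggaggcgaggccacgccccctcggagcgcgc
E2f8: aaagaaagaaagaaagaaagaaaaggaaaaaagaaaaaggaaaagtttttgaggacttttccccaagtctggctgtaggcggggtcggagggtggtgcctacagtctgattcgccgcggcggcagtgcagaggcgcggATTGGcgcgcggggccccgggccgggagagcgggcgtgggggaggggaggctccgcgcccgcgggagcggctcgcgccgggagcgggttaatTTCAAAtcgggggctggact

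Cells were then clustered without cell cycle and histone genes and named from markers, so the class names mean resemblance. The erythroid-like class stood highest for the summed level of the 33 genes in 3 of the 4 libraries, at 5676 and 5486 CPM in Gli1 knockout cells with JAK2V617F and with JAK2WT, and at 6553 and 5681 CPM in wild-type cells with JAK2V617F and with JAK2WT. The exception was the Gli1 knockout JAK2V617F library, where 50 B lineage-like cells had 6180.3 CPM. Erythroid-like cells were 35.8% of the wild-type JAK2V617F library after depletion of TER119, and between 0.985% and 1.37% of the other 3. In the class like granulocyte-monocyte progenitors and promyelocytes (GMP-like) the sum was 4579 and 4159 CPM in Gli1 knockout cells with JAK2V617F and with JAK2WT, and 4394 and 3839 CPM in wild-type cells with JAK2V617F and with JAK2WT. The class like stem and multipotent progenitor cells (HSC/MPP-like) had 4207 and 3876 CPM in Gli1 knockout cells with JAK2V617F and with JAK2WT, and 4296 and 3876 CPM in wild-type cells. The progenitor classes thus lay close together, with the JAK2V617F library above the JAK2WT library in both genotypes. Mast cell and basophil-like cells followed at 3802 and 3463 CPM in Gli1 knockout cells with JAK2V617F and with JAK2WT, and at 3696 and 3131 CPM in wild-type cells. Innate lymphoid-like (ILC-like) cells had 1387 and 1041 CPM in Gli1 knockout cells and 1118 and 1885 CPM in wild-type cells, again with JAK2V617F and with JAK2WT in that order. Monocyte-like cells had 4647 and 4001 CPM in Gli1 knockout cells with JAK2V617F and with JAK2WT and 3688 CPM in wild-type cells with JAK2WT. Unnamed cluster 6, led by Lyz2 and Chil3, had a higher monocyte score (2.37 against 1.89) and is outside that class. It stood at 2874, 3531 and 3865 CPM in the same order. Plasmacytoid dendritic-like cells had 4323, 4743 and 4099.7 CPM, again in that order. They pool cluster 9, with Siglech, and cluster 16, led by Dntt. In wild-type cells with JAK2WT these had 2587 CPM over 238 cells and 4633 CPM over 375 cells. Of the 229 such Gli1 knockout cells with JAK2WT, 214 were of cluster 16, and the part of this makeup was not tested. Neutrophil-like cells lay between 1114 and 1766 CPM and conventional dendritic-like cells between 770.1 and 1627 CPM in the 3 libraries with at least 30 of them. Plasma cells, a type that as a rule does not divide, were the lowest class in each library, at 553 and 211 CPM in Gli1 knockout cells with JAK2V617F and with JAK2WT, and at 510 and 612 CPM in wild-type cells with JAK2V617F and with JAK2WT. That level was taken as the background for the other classes, with a limit. The 10 leading genes of plasma cells are immunoglobulin genes and Jchain, whose RNA is part of the total. Other genes are diluted by it, in CPM and in thinned counts alike. A few cells of the class were also high for the set, as the counts per cell below show. The level is thus a low reference and not an exact baseline.

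**Figure D1:**
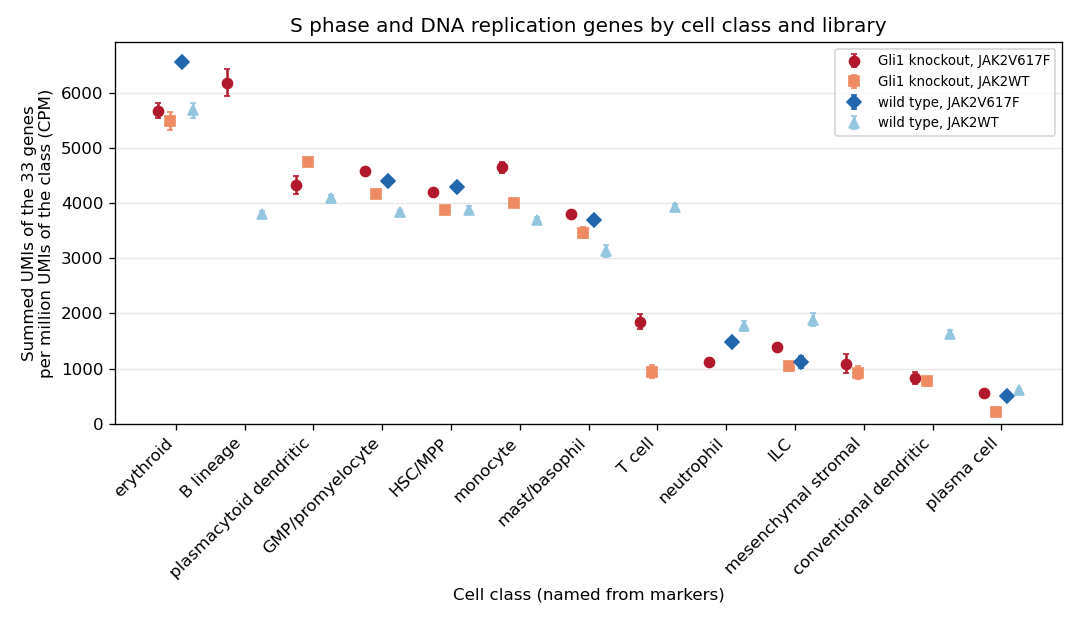
Summed CPM of the 33 genes (vertical axis, from 0) for each marker-named cell class (horizontal axis) in the 4 libraries; points are 1 library each and bars are exact 95% Poisson intervals. Erythroid-like cells reach 6553 CPM in the wild-type JAK2V617F library, progenitor classes lie between 3131 and 4579 CPM, and plasma cells lie at or under 612 CPM.

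Single members did not all peak in the same cells. Over the 43 pairs of class and library with at least 30 cells, 16 of the 33 genes were highest in erythroid-like cells of the wild-type JAK2V617F library, and 8 were highest in the 50 B lineage-like cells of the Gli1 knockout JAK2V617F library. Rrm2, the small subunit of ribonucleotide reductase, was among those 8, with 587 CPM there. It stood in erythroid-like cells at 403 and 327 CPM in Gli1 knockout cells with JAK2V617F and with JAK2WT, and at 564 and 242 CPM in wild-type cells. E2f8, a repressing E2F factor, and Rfc2, a subunit of the loader that places Pcna on DNA, were highest in mast cell and basophil-like cells of the Gli1 knockout JAK2WT library, at 112 and 313 CPM. Ung, which removes uracil from DNA, was highest in GMP-like cells of the Gli1 knockout JAK2V617F library at 89.0 CPM, and Cdca7, which works with Hells in chromatin remodelling, in T cell-like cells of the wild-type JAK2WT library at 188 CPM.

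Across the same 43 pairs the log2 level of each gene was set against the log2 sum of the other 32. Pearson's r was 0.99 for Mcm7 and 0.98 for Dut, the dUTPase that keeps uracil out of DNA. It was lowest for Cdc25a (0.83), the phosphatase that activates cyclin-dependent kinases, Rrm2 (0.83), Ung (0.84), E2f8 (0.85) and Rfc2 (0.86). The pairs share libraries and depth, so these values are a description. Outside the set, Anp32b had the most similar pattern (r = 0.98), followed by Tipin, Siva1, Lig1, Nasp, Mrpl18, Ranbp1, Snrpd1 and Hnrnpab (r = 0.97 each) and Lsm2 (0.96).

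To compare the groups without the difference in cell makeup, the levels of the HSC/MPP-like, GMP-like and ILC-like classes, those with at least 100 cells in each library, were averaged with the same weights in each library (36.3%, 53.5% and 10.3%). The standardised sum of the 33 genes was 4116 CPM in Gli1 knockout cells with JAK2V617F and 3737 CPM in Gli1 knockout cells with JAK2WT, a ratio of 1.10-fold (log2 0.14, interval 0.13 to 0.15). In wild-type cells it was 4022 CPM with JAK2V617F and 3652 CPM with JAK2WT, again 1.10-fold (log2 0.14, interval 0.12 to 0.15). The size depended on the processing: before standardising the log2 ratio was 0.22 in Gli1 knockout and 0.45 in wild-type cells, without doublet removal it was 0.079 in Gli1 knockout cells, and in wild-type cells it was 0.031 with equal class weights and 0.083 without the 50 most abundant genes in the total. Without doublet removal the classes changed too: a cluster led by F13a1, GMP-like in the main run, was named monocyte-like and left the average. A cluster led by Il7r and Rora, ILC-like in the main run, had no name there and left the average too. The part of either in the lower ratio was not tested. The JAK2V617F libraries were higher in HSC/MPP-like cells, with log2 ratios of 0.12 in Gli1 knockout and 0.15 in wild-type cells, and in GMP-like cells, with 0.14 and 0.19 (Gli1 knockout and wild type). Haemoglobin RNA in the same standardised cells, which marks erythroid RNA, was 32.2 and 17.1 CPM in Gli1 knockout cells with JAK2V617F and with JAK2WT, and 110.0 and 17.6 CPM in wild-type cells with JAK2V617F and with JAK2WT. Its part in the ratios was not tested.

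Clusters inside these classes did not all show the same size of difference. HSC/MPP-like cluster 1, whose leading genes include Pf4, had 4864 and 4182 CPM in Gli1 knockout cells with JAK2V617F and with JAK2WT, and 4626 and 4586 CPM in wild-type cells. HSC/MPP-like cluster 2, led by Ctla2a, Angpt1 and Hlf, had 3337 and 3235 CPM in Gli1 knockout cells with JAK2V617F and with JAK2WT, and 3758 and 2500.2 CPM in wild-type cells. The difference in Gli1 knockout cells was thus wider in cluster 1, and that in wild-type cells in cluster 2. Of the GMP-like clusters, cluster 0, led by F13a1 and Prtn3 with further monocyte genes, had 5074 and 4304 CPM in Gli1 knockout cells with JAK2V617F and with JAK2WT, and 4819 and 4214 CPM in wild-type cells. Cluster 7 had 4458 and 4114 CPM in Gli1 knockout cells and 4348 and 3841 CPM in wild-type cells, in the same order. Cluster 8, led by Elane and Ms4a3, had 3841 CPM with JAK2V617F and 4038 CPM with JAK2WT in Gli1 knockout cells, the opposite direction, against 4176 and 3455 CPM in wild-type cells. The most populated GMP-like cluster was 7 in Gli1 knockout cells with JAK2V617F, 0 in Gli1 knockout cells with JAK2WT, and 8 in both wild-type libraries. Standardising over the 6 clusters 0, 1, 2, 3, 7 and 8 instead, an alternative chosen after seeing the data, gave log2 ratios of 0.12 in Gli1 knockout and 0.18 in wild-type cells.

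The differences of single genes were small, and all 33 were measured, meaning that they reached 10 CPM in either group. In Gli1 knockout cells 0 of the 33 genes were at least 1.5-fold higher with JAK2V617F than with JAK2WT (0.349% of 8028 measured genes were) and 0 were at least 1.5-fold lower (0.399%). Their log2 ratios, computed with 10 CPM added to both values, ran between -0.20 and 0.48 with a median of 0.10, and 23 were above 0, while the median of all measured genes was 0.01. In wild-type cells 1 gene, Rrm2, was at least 1.5-fold higher with JAK2V617F (3.64% of 8150 measured genes were) and 0 were lower (2.6%), so the count was near the background. There the log2 ratios ran between -0.42 and 0.85 with a median of 0.10 and 21 above 0, beside a median of 0.06 over all measured genes.

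**Figure D2:**
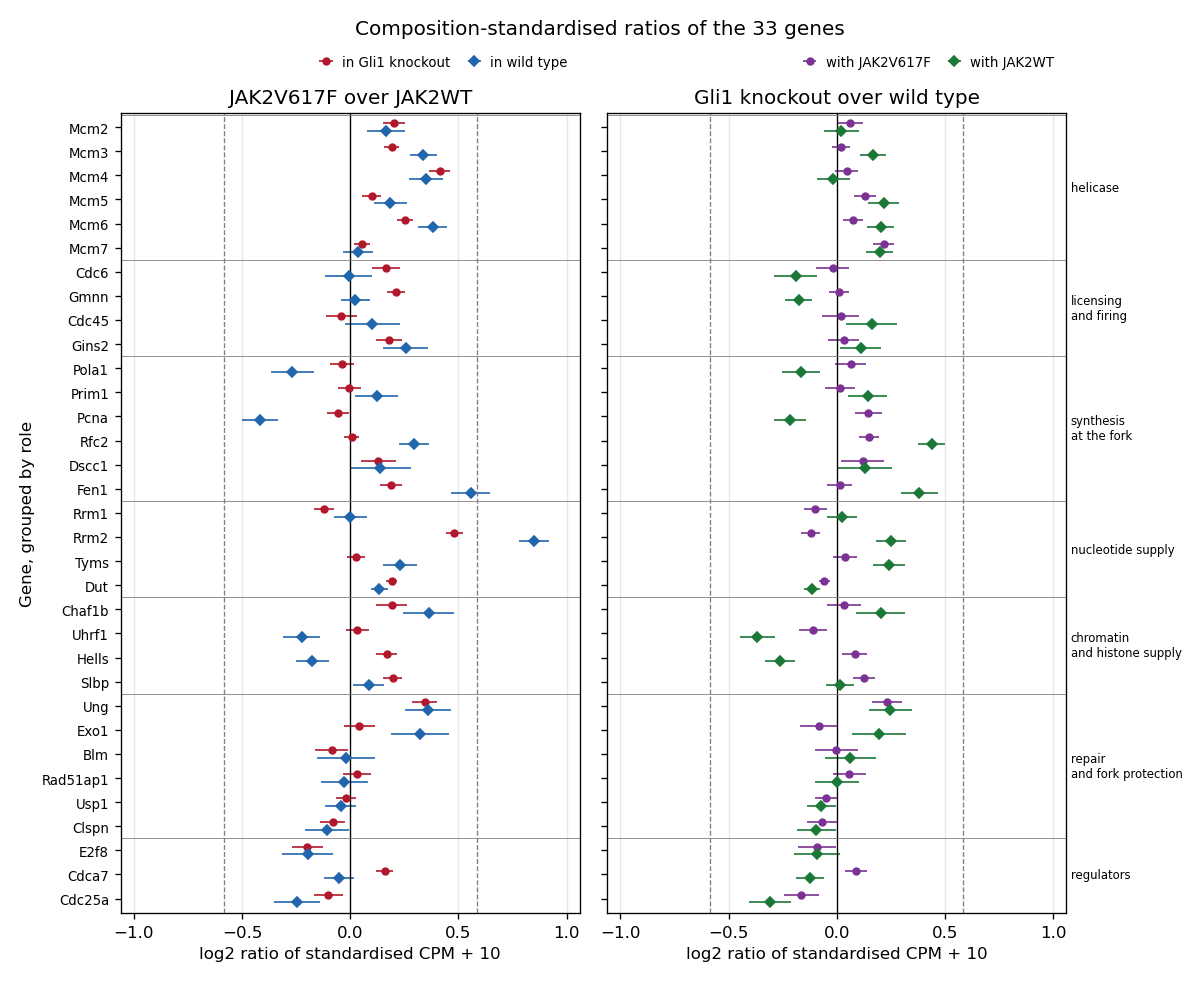
Log2 ratio of the standardised level with 10 CPM added (horizontal axis) for each of the 33 genes, grouped by role (vertical axis); left, JAK2V617F over JAK2WT in Gli1 knockout and in wild-type cells; right, Gli1 knockout over wild type with JAK2V617F and with JAK2WT. Points come from 1 library per group, bars are 95% intervals for counting error, and dashed lines mark 1.5-fold, which only Rrm2 in wild-type cells passes, at 0.85.

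Each of the 6 helicase genes had a ratio above 0 in both genotypes. Their summed standardised level was 1057 and 916 CPM in Gli1 knockout cells with JAK2V617F and with JAK2WT, and 990.0 and 822 CPM in wild-type cells with JAK2V617F and with JAK2WT, log2 ratios of 0.21 and 0.27 (Gli1 knockout and wild type). Mcm4 stood at 152 and 112 CPM in Gli1 knockout cells with JAK2V617F and with JAK2WT, and at 147 and 113 CPM in wild-type cells, log2 ratios of 0.41 and 0.35 (Gli1 knockout and wild type). Mcm6 stood at 218 and 181 CPM in Gli1 knockout cells and at 207 and 156 CPM in wild-type cells, with JAK2V617F and with JAK2WT in that order, log2 ratios of 0.25 and 0.38. Both JAK2V617F libraries therefore exceeded both JAK2WT libraries for these genes. For Mcm3 the log2 ratios were 0.19 in Gli1 knockout and 0.34 in wild-type cells, for Mcm2 0.20 and 0.16, and for Mcm5 0.10 and 0.19 in the same order. Mcm7 differed least, at 0.05 in Gli1 knockout and 0.04 in wild-type cells. Its wild-type interval (-0.03 to 0.11) includes 0, and its wild-type value lies below the median of all measured genes. Leaving the 50 most abundant genes out of the total took the ratio of the whole set in wild-type cells to 0.083, a shift larger than the Mcm7 ratio there.

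Among the genes that prepare and fire origins, Gins2, a subunit of the GINS complex, had log2 ratios of 0.18 in Gli1 knockout and 0.26 in wild-type cells. Gmnn encodes geminin, which blocks a second loading of the helicase. It stood at 177 and 152 CPM in Gli1 knockout cells with JAK2V617F and with JAK2WT, and at 176 and 173 CPM in wild-type cells, so the Gli1 knockout JAK2WT library was the low one. Cdc6, a loader of the helicase, had ratios of 0.16 in Gli1 knockout and -0.01 in wild-type cells. Cdc45 had -0.04 and 0.10 (Gli1 knockout and wild type), with intervals that include 0 in both.

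At the fork the genes went different ways. Fen1, the flap nuclease that trims the pieces of the lagging strand, stood at 111 and 95.9 CPM in Gli1 knockout cells with JAK2V617F and with JAK2WT, and at 109 and 71.3 CPM in wild-type cells. Its log2 ratio was 0.19 (0.14 to 0.24) in Gli1 knockout and 0.56 (0.47 to 0.65) in wild-type cells. Pcna, the sliding clamp, stood at 106 and 111 CPM in Gli1 knockout cells with JAK2V617F and with JAK2WT, and at 95.05 and 130.3 CPM in wild-type cells, log2 ratios of -0.05 and -0.42 (Gli1 knockout and wild type). The wild-type JAK2WT library was thus the lowest of the 4 for Fen1 and the highest for Pcna. The processed copy Pcna-ps2, which is nearly identical to Pcna and may take some of its reads, had 78 and 60 UMIs in the Gli1 knockout libraries and 77 and 69 UMIs in the wild-type libraries, beside 10745, 7355, 6978 and 7943 UMIs of Pcna. Rfc2 was 229 and 228 CPM in Gli1 knockout cells with JAK2V617F and with JAK2WT, and 206 and 166 CPM in wild-type cells. Pola1, the catalytic subunit of polymerase alpha, encoded on the X chromosome, had log2 ratios of -0.04 in Gli1 knockout and -0.27 in wild-type cells, and Prim1, the primase, 0.00 and 0.12. Dscc1, part of an alternative clamp loader, had 0.13 and 0.14 in the same order.

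Of the genes of nucleotide supply, Dut was the most abundant of the whole set, with 13.6% of its standardised level over the 4 libraries. Rrm2 stood at 183 CPM in Gli1 knockout cells with JAK2V617F and 129 CPM in Gli1 knockout cells with JAK2WT, and at 200.03 CPM in wild-type cells with JAK2V617F and 107 CPM in wild-type cells with JAK2WT. Its log2 ratio was 0.48 (0.44 to 0.52) in Gli1 knockout and 0.85 (0.78 to 0.92) in wild-type cells. In GMP-like cells it reached 248 and 174 CPM in Gli1 knockout cells with JAK2V617F and with JAK2WT, and 276 and 134 CPM in wild-type cells. In mast cell and basophil-like cells Rrm2 had 159.8 and 76.3 CPM in Gli1 knockout cells with JAK2V617F and with JAK2WT, and 156 and 68.7 CPM in wild-type cells. In HSC/MPP-like cells it had 129.6 and 91.7 CPM in Gli1 knockout cells and 132 and 86.7 CPM in wild-type cells, in the same order. Each of these classes had both JAK2V617F libraries above both JAK2WT libraries. Rrm1, the large subunit of the same enzyme, did not share this: it stood at 128 and 141 CPM in Gli1 knockout cells with JAK2V617F and with JAK2WT, and at 138 CPM in both wild-type libraries. Tyms, which makes thymidylate, had log2 ratios of 0.03 in Gli1 knockout and 0.23 in wild-type cells, and Dut 0.19 and 0.13.

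Chaf1b, which places new histones on copied DNA, had log2 ratios of 0.19 in Gli1 knockout and 0.36 in wild-type cells. Slbp, which binds histone mRNAs, had 0.20 and 0.08 in the same order. Uhrf1 and Hells, which maintain DNA methylation on copied strands, had 0.03 and 0.17 in Gli1 knockout and -0.23 and -0.18 in wild-type cells. Uhrf1 was highest in the wild-type JAK2WT library, at 103 CPM, against 86.5 CPM in wild-type cells with JAK2V617F and 79.5 and 77.5 CPM in Gli1 knockout cells with JAK2V617F and with JAK2WT.

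Among the genes of repair and fork protection Ung had the highest ratios in both genotypes, at 80.8 and 61.5 CPM in Gli1 knockout cells with JAK2V617F and with JAK2WT, and at 67.4 and 50.3 CPM in wild-type cells. Its log2 ratios were 0.34 (0.29 to 0.40) and 0.36 (0.25 to 0.47), Gli1 knockout and wild type. Exo1, a nuclease of mismatch repair, had 0.04 and 0.32 in the same order, at a level of 31.3 CPM or less. Blm, a helicase of recombination, Rad51ap1, which takes part in recombination, Usp1, which removes ubiquitin from Pcna, and Clspn, a mediator of the replication checkpoint, lay between -0.11 and 0.03 in both genotypes. Of the regulators, E2f8 was lower with JAK2V617F, at 31.4 and 37.5 CPM in Gli1 knockout cells with JAK2V617F and with JAK2WT, and at 34.2 and 40.7 CPM in wild-type cells, a log2 ratio of -0.20 in each genotype. Cdc25a had ratios of -0.10 in Gli1 knockout and -0.25 in wild-type cells, and Cdca7 0.16 and -0.05.

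The sign of the JAK2V617F difference was also followed through the 6 classes with a value in each library (HSC/MPP-like, erythroid-like, GMP-like, mast cell and basophil-like, ILC-like and plasma cells), which gives 12 pairs over both genotypes. Rrm2 and Fen1 were higher with JAK2V617F in 12 of 12 pairs, or 2 of the 33 genes, where 1.63% of 10500 genes were. The pairs of a genotype share their libraries, so they are not independent. In ILC-like and plasma cells the signs of single genes rest on few UMIs.

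Erythroid-like cells were too few for the standardised set in 3 libraries and were read on their own, over 59 and 52 Gli1 knockout cells with JAK2V617F and with JAK2WT, and 1231 and 79 wild-type cells. The log2 ratio of JAK2V617F over JAK2WT for the sum was 0.05 (-0.0068 to 0.11) in Gli1 knockout cells, an interval that includes 0, and 0.21 (0.17 to 0.24) in wild-type cells. The class pools clusters 23 and 24, which held 28 and 31 Gli1 knockout cells with JAK2V617F, 38 and 14 Gli1 knockout cells with JAK2WT, 526 and 705 wild-type cells with JAK2V617F, and 56 and 23 wild-type cells with JAK2WT. Cluster 24 thus held most of these cells in both JAK2V617F libraries and cluster 23 in both JAK2WT libraries. In cluster 23 the sum was 4236 CPM in Gli1 knockout cells with JAK2WT, and 5129 and 4934 CPM in wild-type cells with JAK2V617F and with JAK2WT, closer together than over the class. In cluster 24 it was 6129 CPM in Gli1 knockout and 7439 CPM in wild-type cells, both with JAK2V617F. The part of this makeup in the ratios, and in those of single genes, was not tested. Slbp stood at 380.3 and 290.6 CPM in Gli1 knockout cells with JAK2V617F and with JAK2WT, and at 405 and 309.8 CPM in wild-type cells, with both JAK2V617F libraries above both JAK2WT libraries. Clspn stood at 145 and 122 CPM in Gli1 knockout cells and at 201 and 162 CPM in wild-type cells, in the same order. Uhrf1 went the other way, at 108 and 135 CPM in Gli1 knockout cells and at 151 and 182 CPM in wild-type cells. With JAK2V617F the sum was lower in Gli1 knockout than in wild-type erythroid-like cells, with a log2 ratio of -0.21 (-0.24 to -0.17). E2f8 was lower too, at 62.2 CPM in Gli1 knockout and 102 CPM in wild-type cells, and so was Rrm1, at 286 and 391 CPM.

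The Gli1 genotypes were compared next. These 4 comparisons share libraries, each library entering a comparison of constructs and a comparison of genotypes. With JAK2V617F the standardised sum was 4116 CPM in Gli1 knockout cells and 4022 CPM in wild-type cells, a log2 ratio of 0.03 (0.02 to 0.04). With JAK2WT it was 3737 CPM in Gli1 knockout cells and 3652 CPM in wild-type cells, also 0.03 (0.02 to 0.05). HSC/MPP-like cells had log2 ratios of -0.03 with JAK2V617F and 0.00 with JAK2WT, and GMP-like cells 0.06 and 0.12. The sign of the small standardised ratio depended on the processing: it was below 0 in 2 of 8 alternatives with JAK2WT and in 3 of 8 with JAK2V617F, so no direction is given for the set.

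With JAK2V617F 0 of the 33 genes were at least 1.5-fold higher in Gli1 knockout cells (0.492% of 7927 measured genes were) and 0 were lower (0.542%), and the log2 ratios ran between -0.16 and 0.23 with a median of 0.03. Ung was at the upper end, with 80.8 CPM in Gli1 knockout cells and 67.4 CPM in wild-type cells, and Cdc25a at the lower end, with 42.0 and 48.3 CPM. With JAK2WT 0 genes were at least 1.5-fold higher in Gli1 knockout cells (1.61% of 8153 measured genes were) and 0 were lower (1.1%), with ratios between -0.37 and 0.44 and a median of 0.02. Rfc2 was at the upper end, with 228 CPM in Gli1 knockout cells and 166 CPM in wild-type cells (log2 0.44, interval 0.37 to 0.50), followed by Fen1 at 0.38. Uhrf1 was at the lower end, with 77.5 CPM in Gli1 knockout cells and 102.8 CPM in wild-type cells (-0.37, interval -0.45 to -0.29), followed by Cdc25a at -0.31. Over the 6 classes and both constructs 0 of the 33 genes were higher in Gli1 knockout cells in all 12 pairs, where 0.343% of 10500 genes were.

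In ILC-like cells the construct difference had the direction of the progenitors in Gli1 knockout and the opposite one in wild type. The sum was 1387 CPM (1336 to 1440.3) in Gli1 knockout cells with JAK2V617F and 1041 CPM (958 to 1129) in Gli1 knockout cells with JAK2WT. In wild-type cells it was 1118 CPM (1018 to 1225) with JAK2V617F and 1885 CPM (1767 to 2008) with JAK2WT. The wild-type JAK2WT library was thus the highest, and the log2 ratio of JAK2V617F over JAK2WT was 0.41 (0.28 to 0.54) in Gli1 knockout and -0.75 (-0.91 to -0.59) in wild-type cells.

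In Gli1 knockout ILC-like cells 7 of 27 measured genes were at least 1.5-fold higher with JAK2V617F (Mcm3, Ung, Tyms, Cdca7, Gins2, Pola1 and Gmnn; 4.21% of 8520 measured genes were) and 0 were lower (5.46%). In wild-type ILC-like cells 0 of 31 were higher with JAK2V617F (15.3% of 8653 measured genes were) and 16 were lower (16%). Because 10 CPM in either group sufficed, genes near that minimum were measured only through the library where they were high. Calls of such genes follow in part from the filter, as do those in the shares over all genes. Uhrf1 had 12.2 and 7.16 CPM in Gli1 knockout ILC-like cells with JAK2V617F and with JAK2WT, from 24 and 4 UMIs, and 7.26 and 51.6 CPM in wild-type ones, from 3 and 26 UMIs. Pcna had 41.2 and 44.7 CPM in Gli1 knockout cells with JAK2V617F and with JAK2WT, and 24.2 and 91.3 CPM in wild-type cells. Pola1 had 23.9 and 10.7 CPM in Gli1 knockout cells and 14.5 and 59.6 CPM in wild-type cells, in the same order. Uhrf1, Pcna and Pola1 were highest in the wild-type JAK2WT library, whereas Rrm2 and Fen1 were not, with 43.6 CPM of Rrm2 and 41.1 CPM of Fen1 in wild-type cells with JAK2V617F against 33.8 and 27.8 CPM with JAK2WT. All UMIs of the class came to 413308 with JAK2V617F and 503570 with JAK2WT in wild-type cells. The Rrm2 and Fen1 levels thus rest on few UMIs, and their order is not certain.

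Between genotypes, 4 of 28 measured genes were at least 1.5-fold higher in Gli1 knockout ILC-like cells with JAK2V617F than in wild-type ones (Gins2, Rad51ap1, Mcm5 and Ung; 6.07% of 8446 measured genes were), and 1, Blm, was lower (6.55%). With JAK2WT 0 of 31 were higher in Gli1 knockout cells (12.9% of 8736 measured genes were) and 19 were lower (13.2%), among them Cdc6, with 0 UMIs in Gli1 knockout cells and 14 in wild-type cells. Cdc6 was measured here only through the wild-type library, so its call as lower follows from the filter. Other genes near the minimum share this limit, and the 19 are not read as a result about the set. G2 and M genes, too, were highest in the wild-type JAK2WT library in ILC-like cells. Their sum was 673 and 776 CPM in Gli1 knockout cells with JAK2V617F and with JAK2WT, and 540.4 and 1896 CPM in wild-type cells. In Gli1 knockout cells their order between the constructs was thus opposite to that of the set. This held in cluster 14 of the class (592 and 1110 CPM) and not in cluster 3 (704 and 592 CPM). The replication-dependent histone genes were also highest in wild-type cells with JAK2WT. They had 662 and 496 CPM in Gli1 knockout cells with JAK2V617F and with JAK2WT, and 581 and 1541 CPM in wild-type cells. The part of either list in the result was not tested. The class is small, with 522 and 125 Gli1 knockout cells and 168 and 159 wild-type cells. Cluster 3 holds most of it in each library, and in that cluster the sum was 1356 and 1037 CPM in Gli1 knockout cells with JAK2V617F and with JAK2WT, and 979 and 1984 CPM in wild-type cells. In the smaller cluster 14 (117 and 36 Gli1 knockout cells with JAK2V617F and with JAK2WT, and 42 and 40 wild-type cells) it was 1468 and 1049 CPM in Gli1 knockout cells with JAK2V617F and with JAK2WT, and 1468 and 1757 CPM in wild-type cells. There the wild-type difference was smaller than in cluster 3, and with JAK2V617F the genotypes had the same level.

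The level of the set was next read cell by cell. Cells with at least 3000 UMIs were thinned to 3000, which left out 633 and 822 Gli1 knockout cells with JAK2V617F and with JAK2WT, and 400 and 2778 wild-type cells, and those with at least 5 UMIs of the 33 genes were counted. In GMP-like cells they were 93.3% and 92.5% of Gli1 knockout cells with JAK2V617F and with JAK2WT, and 95.2% and 93.2% of wild-type cells. In HSC/MPP-like cells they were 80.2% (78.5 to 81.8) and 77.5% (73.9 to 80.7) of Gli1 knockout cells with JAK2V617F and with JAK2WT, and 83.0% (79.4 to 86.1) and 76.8% (71.4 to 81.7) of wild-type cells. Most progenitor cells of each library thus passed the count. Without thinning the HSC/MPP-like shares were 96.8% and 98.9% in Gli1 knockout cells with JAK2V617F and with JAK2WT, and 97.1% and 90.7% in wild-type cells, where depth differs. Erythroid-like cells passed in 99.2% of the wild-type JAK2V617F library and in 85.7% to 100% of the other 3. In ILC-like cells the share was 32.7% (28.1 to 37.7) and 19.6% (12.4 to 28.6) in Gli1 knockout cells with JAK2V617F and with JAK2WT, and 26.8% (14.2 to 42.9) and 40.0% (27.6 to 53.5) in wild-type cells, the wild-type values from 41 and 60 cells, and without thinning 51.5% and 42.4% in Gli1 knockout cells and 13.1% and 39.6% in wild-type cells. Plasma cells, read as background, passed in 10.3% and 1.13% of Gli1 knockout cells with JAK2V617F and with JAK2WT and in 8.61% of wild-type cells with JAK2WT, at median depths before thinning of 31319, 30627 and 13071 UMIs, beside class medians of 10008 to 17224 UMIs for HSC/MPP-like cells. The wild-type JAK2V617F library had 29 such plasma cells, too few for a share.

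Standardised over the 3 matched classes, the share was 82.3% (81.3 to 83.4) in Gli1 knockout cells with JAK2V617F and 79.6% (77.9 to 81.2) in Gli1 knockout cells with JAK2WT. In wild-type cells it was 83.8% (81.8 to 85.7) with JAK2V617F and 81.8% (79.4 to 84.2) with JAK2WT. The ratio was 1.03 in Gli1 knockout cells (1.01 to 1.06) and 1.02 in wild-type cells (0.986 to 1.06), an interval that includes 1. Mean UMIs of the set per 3000 in HSC/MPP-like cells were 11.6 and 11.0 in Gli1 knockout cells with JAK2V617F and with JAK2WT, and 12.0 and 10.7 in wild-type cells.

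GFP, which marks transduced cells, was found in 60 and 6 kept Gli1 knockout cells with JAK2V617F and with JAK2WT, and in 88 and 45 wild-type cells. Of those with at least 3000 UMIs, 47 of 59 Gli1 knockout and 72 of 87 wild-type cells with JAK2V617F had at least 5 UMIs of the set (79.7% and 82.8%), against 73.6% and 84.8% of the cells without a GFP UMI. In wild-type cells with JAK2WT they were 30 of 37 (81.1%), against 68.7% without a GFP UMI, and in Gli1 knockout cells with JAK2WT 5 such cells were too few for a share. Cells with a GFP UMI were thus above the others in 2 of these 3 libraries, over all classes together. In each of the 3 the interval of their share includes the share without a GFP UMI, so no difference is read. Their median depth before thinning was also higher, at 19041 against 15458 UMIs in Gli1 knockout cells with JAK2V617F. In wild-type cells it was 15752 against 14827 UMIs with JAK2V617F and 14263 against 9552 UMIs with JAK2WT. Cells without a GFP UMI may include transduced ones. The part of depth and class makeup was not tested.

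The G2 and M genes put the libraries in another order than the S phase set did. The standardised sum of 40 G2 and M genes was 2784 and 3884 CPM in Gli1 knockout cells with JAK2V617F and with JAK2WT, and 3106 and 2816 CPM in wild-type cells. The Gli1 knockout JAK2WT library, which was not high for the S phase set, was thus the highest. In Gli1 knockout cells 0 of 39 measured G2 and M genes lay above 0 for JAK2V617F over JAK2WT, beside a median log2 ratio of 0.01 over all measured genes. Of the 39, 6 were at least 1.5-fold lower (0.399% of 8028 measured genes were), with Cenpf, a kinetochore gene, at 76.4 and 143.8 CPM and Ube2c, of the anaphase-promoting complex pathway, at 161 and 281 CPM (JAK2V617F and JAK2WT). Ccna2, whose cyclin already acts in S phase, differed least, at 68.2 and 72.5 CPM. In wild-type cells 1 of 39 was at least 1.5-fold higher with JAK2V617F (3.64% of 8150 measured genes were), Cdc20 at 69.6 and 37.6 CPM, and 0 were lower (2.6%). With JAK2WT 10 of 39 were at least 1.5-fold higher in Gli1 knockout than in wild-type cells (1.61% of 8153 measured genes were), with Cdc20 at 90.4 and 37.6 CPM. All 39 lay above 0, beside a median log2 ratio of 0.04 over all measured genes. The log2 ratios at the ends in wild-type cells were 0.46 for Cdca8, -0.29 for Mki67 and -0.32 for Nusap1, beside 0.74 for Cdc20. With JAK2V617F 0 of the 39 passed 1.5-fold between genotypes (0.492% of 7927 measured genes were higher in Gli1 knockout cells and 0.542% lower).

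The ratio of S phase to G2 and M UMIs was also taken in cells thinned to 3000. In HSC/MPP-like cells it was 1.53 and 1.04 in Gli1 knockout cells with JAK2V617F and with JAK2WT, and 1.29 and 1.38 in wild-type cells. In GMP-like cells it was 1.67 and 1.11 in Gli1 knockout cells and 1.44 and 1.47 in wild-type cells, in the same order. The Gli1 knockout JAK2WT library had the lowest ratio in both classes, but not in every cluster of them. HSC/MPP-like cluster 1 had 1.61 and 0.945 in Gli1 knockout cells with JAK2V617F and with JAK2WT, and 1.23 and 1.45 in wild-type cells. In HSC/MPP-like cluster 2 the ratio was 1.41 and 1.34 in Gli1 knockout cells and 1.40 and 1.22 in wild-type cells, in the same order, so the wild-type JAK2WT library was the lowest there. In the GMP-like clusters 0, 7 and 8 the Gli1 knockout JAK2WT library was the lowest, at 0.928, 1.08 and 1.44, though in cluster 8 the wild-type JAK2V617F library was close to it at 1.46. Erythroid-like cells had ratios of 0.876 and 0.947 in Gli1 knockout cells and 0.925 and 1.03 in wild-type cells, with no such gap.

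**Figure D3:**
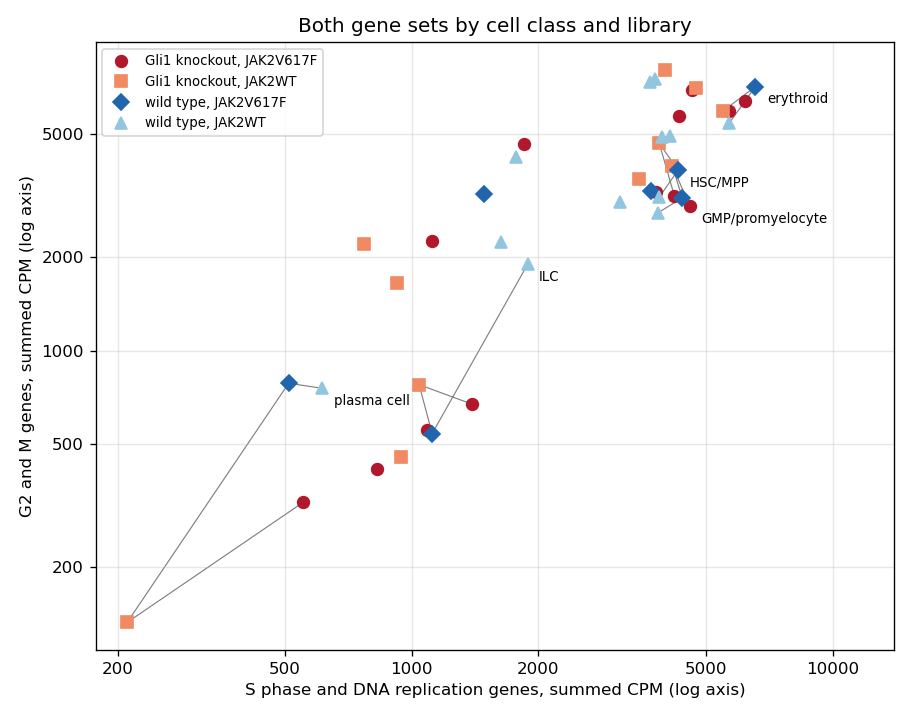
Summed CPM of the 33 S phase genes (horizontal log axis) against summed CPM of 40 G2 and M genes (vertical log axis); each point is 1 cell class in 1 library, and grey lines join the libraries of 5 labelled classes. ILC-like cells of the wild-type JAK2WT library lie at 1885 and 1896 CPM, right of and above the other 3 ILC points, and HSC/MPP-like cells of the Gli1 knockout JAK2WT library at 3876 and 4661 CPM.

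Other genes of the same machinery were given from lists. The 52 other replication genes, such as the origin complex, polymerases and single-strand binding proteins, had standardised sums of 3874 and 3726 CPM in Gli1 knockout cells with JAK2V617F and with JAK2WT, and 3830 and 3854 CPM in wild-type cells. For JAK2V617F over JAK2WT 0 of 50 measured genes passed 1.5-fold in Gli1 knockout cells (over all 8028 measured genes 0.349% were higher and 0.399% lower). There Tipin, a fork protection gene, had 189 and 150.4 CPM and Dbf4, the partner of the kinase Cdc7, 48.7 and 57.0 CPM. In wild-type cells Asf1b, a histone chaperone, passed, with 62.4 CPM with JAK2V617F and 35.2 CPM with JAK2WT, where 3.64% of 8150 measured genes were higher and 2.6% lower. Pclaf, a Pcna partner, was at the lower end with 329 and 446 CPM. Next to these ends were Orc6 (log2 0.24) and Topbp1 (-0.16) in Gli1 knockout cells, and Rfc5 (0.55) and Topbp1 (-0.33) in wild-type cells. Between genotypes 0 of 49 measured genes passed with JAK2V617F (0.492% of all measured genes were higher in Gli1 knockout cells and 0.542% lower) and 0 of 50 with JAK2WT (1.61% and 1.1%). The ends of the log2 ratios of Gli1 knockout over wild type were Pole4 (0.28), Pclaf (0.23), Pold2 (-0.16) and Rnaseh2c (-0.36) with JAK2V617F, and Rfc5 (0.47), Asf1b (0.41), Pclaf (-0.23) and Rnaseh2c (-0.41) with JAK2WT. The summed level of 10 E2F and cyclin E genes was 439 and 375 CPM in Gli1 knockout cells with JAK2V617F and with JAK2WT, and 435 and 347 CPM in wild-type cells. Of these, Tfdp1 encodes a partner with which many, though not all, E2F factors bind DNA. It stood at 209.7 and 155.0 CPM in Gli1 knockout cells with JAK2V617F and with JAK2WT, and at 202 and 102 CPM in wild-type cells. It and Ccne1, the gene of a cyclin E, at 25.3 and 12.9 CPM in wild-type cells with JAK2V617F and with JAK2WT, were the 2 of 9 measured genes that passed 1.5-fold there, where 3.64% of 8150 measured genes were higher. In Gli1 knockout cells 0 of 8 passed (0.349% of all measured genes were higher and 0.399% lower). Among 11 cell cycle brakes 0 of 10 measured genes passed in any of the 4 comparisons, beside the same shares over all measured genes. Replication-dependent histone genes summed to 2086 and 2242 CPM in Gli1 knockout cells with JAK2V617F and with JAK2WT, and to 2533 and 2751 CPM in wild-type cells.

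Within a library, the genes of the set took different places relative to G2 and M genes. In HSC/MPP-like cells thinned to 3000 UMIs, cells with a UMI of a gene were set against cells without one. For each of the 33 genes and in each of the 4 libraries the other 32 had more UMIs in the cells with it, by 1.77 to 1.90 times for Dut and 1.06 to 1.19 times for Cdc25a. Depth before thinning moved with this: over the 4 libraries the median was 13355 to 19775 UMIs in cells with 10 or more UMIs of the set and 8340 to 12504.5 UMIs in cells with 1 to 4, and its part in these ratios was not tested. G2 and M genes split part of the set. A UMI of Ung was present in 438 and 103 Gli1 knockout cells with JAK2V617F and with JAK2WT, and in 77 and 36 wild-type cells. Cells with Ung had 4.10 and 4.24 G2 and M UMIs in Gli1 knockout cells with JAK2V617F and with JAK2WT, against 8.41 and 11.9 in cells without it, and 3.99 and 4.64 in wild-type cells with JAK2V617F and with JAK2WT, against 10.3 and 8.26 without it. Cells with Ung were thus low in G2 and M RNA in each library, with ratios of 0.36 to 0.56, and the same cells were low in histone RNA, with ratios of 0.39 to 0.55. Mcm3 had G2 and M ratios of 0.58 to 0.89, Mcm2 of 0.57 to 0.93, Hells of 0.69 to 0.91 and Chaf1b of 0.45 to 0.91.

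At the other end, cells with E2f8, which numbered 181 and 47 in Gli1 knockout cells with JAK2V617F and with JAK2WT and 45 and 24 in wild-type cells, had 1.27 to 1.96 times the G2 and M UMIs of cells without it. Rad51ap1 had ratios of 1.11 to 1.69, Blm of 1.14 to 1.53, Rrm1 of 1.27 to 1.55, Clspn of 1.29 to 1.35 and Gmnn of 1.05 to 1.30, each above 1 in the 4 libraries. Rrm1 cells also had 1.71 to 2.06 times the histone UMIs. Mcm6 and Uhrf1 did not keep a side, being above 1 in wild-type cells with JAK2WT and below 1 in the other 3 libraries. Nor did Cdc6, Pcna, Mcm5, Slbp, Rfc2, Dscc1, Dut, Exo1, Rrm2 and Usp1, each with ratios on both sides of 1 among the 4 libraries. In GMP-like cells the ends of the order were the same genes, Ung at 0.41 to 0.63 and E2f8 at 1.10 to 1.25.

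**Figure D4:**
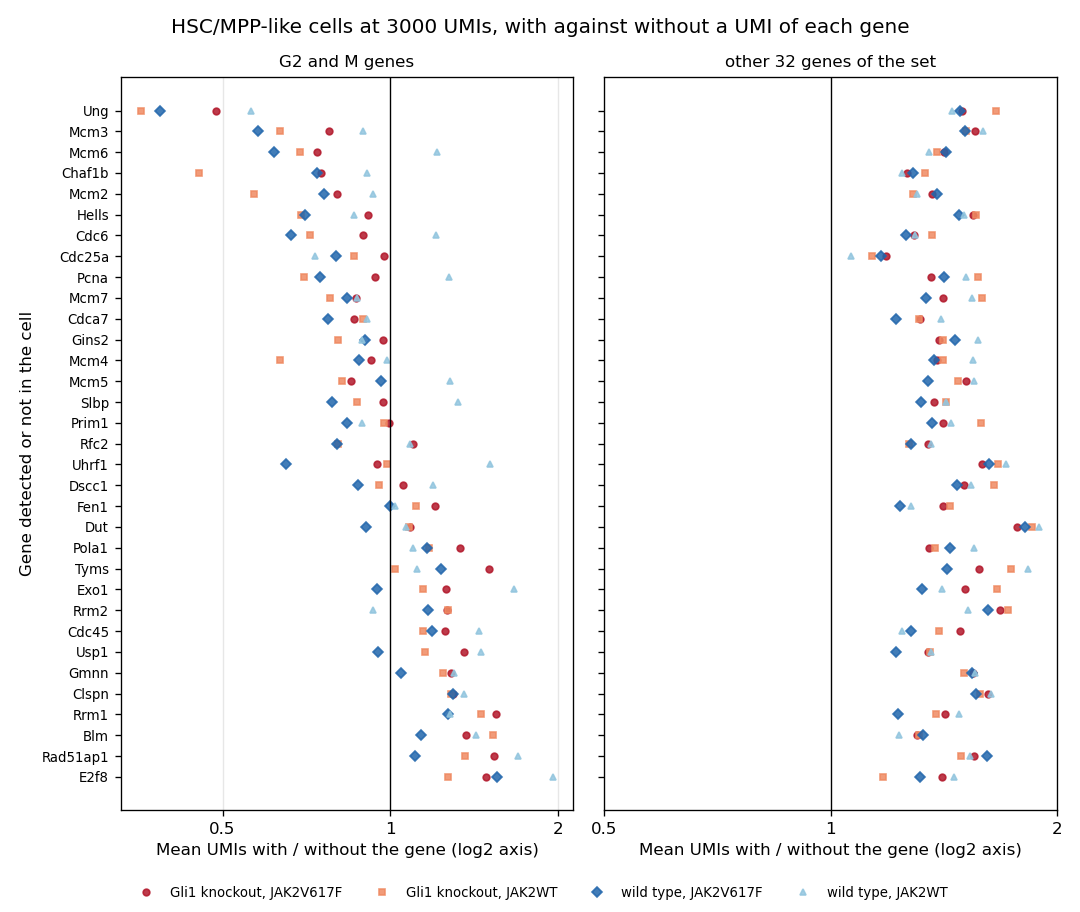
Mean UMIs of 40 G2 and M genes (left) and of the other 32 S phase genes (right) in HSC/MPP-like cells with a UMI of the named gene, divided by those in cells without one (horizontal log2 axis), with all cells thinned to 3000 UMIs; each point is 1 library. Genes run down the page by their median G2 and M ratio, between Ung at 0.44 and E2f8 at 1.52, while all ratios on the right lie above 1.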

How the data were processed

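Bone marrow was profiled with 10x Genomics Single Cell 3' chemistry, v3.1, in 4 mRNA libraries of 1 per group, and 4 hashing libraries were not analysed here. The deposited matrices hold raw UMI counts per gene and barcode, made by the authors with Cell Ranger 4.0.0 per the file headers, on mm10 and with Seurat 4.0.4 per the submitters' processing notes. The kept libraries held 3442 to 7205 cells at median depths of 4401 to 17294.5 UMIs.

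From these counts, cells were taken from 500 genes and 1000 UMIs upwards with under 10% mitochondrial UMIs. Doublets were removed by Scrublet score at 0.8% per 1000 barcodes (503 and 207 Gli1 knockout barcodes with JAK2V617F and with JAK2WT, 160 and 782 wild-type barcodes), and pairs of libraries shared 5 to 15 kept barcodes. Cells were scaled to 10000 counts and clustered in scanpy 1.11.5 (2000 variable genes without cell cycle, histone and sex genes, 30 components, 15 neighbours, Leiden resolution 1). A cluster was named where at least 4 markers of a type reached 50 CPM, its marker score was at least 0.5 and at least 2 markers were among its 10 leading genes; these limits were set after the clusters were seen. Classes with under 30 cells gave no value.

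Levels are UMIs per 1000000 UMIs of the class, with exact Poisson intervals, and shares have exact Clopper-Pearson intervals, both at 95% and for counting error only. Ratios were taken after averaging the 3 classes with at least 100 cells in each library, with 10 CPM added for single genes and none for sums, over genes of at least 10 CPM in either group, and 1.5-fold served as the limit. Cells were thinned to 3000 UMIs for counts per cell. The estimators were tested on simulated data. Computation used Python 3.11.15, numpy 2.4.6, scipy 1.17.1, pandas 2.3.3, scikit-learn 1.9.0, igraph 0.11.9, anndata 0.12.19 and matplotlib 3.10.9.

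The members and the gene lists were chosen with earlier results of these data known. All 33 genes are named; of each other list quoted, genes come from the 2 highest and 2 lowest log2 ratios among genes of at least 50 CPM in either group, and the 10 genes outside the set with the most similar pattern. Ccne1, below that level, was named after its values were seen. The settings varied were the cell filter, doublet removal, clustering, weights, scaling, added CPM, CPM minimum and thinning.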

Additional observations from a re-analysis of the deposited data

Results flagged for a closer look

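Several sums of the 33 genes, or of 1 of their roles, were higher with JAK2V617F than with JAK2WT in Gli1 knockout cells and lower in wild-type cells, with 1 library per group; in each case the difference between the genotypes was not tested. For all 33 genes the log2 ratio of JAK2V617F over JAK2WT in ILC-like cells was 0.41 in Gli1 knockout and -0.75 in wild-type cells. Within the same cells the helicase genes had 0.65 in Gli1 knockout and -0.50 in wild-type cells, the licensing and firing genes 1.00 and -1.34, and the nucleotide supply genes 0.44 and -0.69. The wild-type JAK2WT library was the highest of the 4 for the set in these cells.

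In plasma cells, the background class, the ratio for all 33 genes was 1.39 in Gli1 knockout and -0.26 in wild-type cells, and for the chromatin and histone supply genes 1.31 and -0.69. The Gli1 knockout JAK2WT library had the lowest level there, 211 CPM over 370 cells. For the 3 regulators E2f8, Cdca7 and Cdc25a the ratio over the standardised classes was 0.052 in Gli1 knockout and -0.14 in wild-type cells.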

How the results depend on the processing

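The log2 ratio of JAK2V617F over JAK2WT for the sum of the 33 genes was above 0 in 8 of 8 alternatives in Gli1 knockout and in 8 of 8 in wild-type cells, but its size depended on the processing. Its values in Gli1 knockout and in wild-type cells were 0.22 and 0.45 without standardisation, 0.16 and 0.031 with equal class weights, 0.079 and 0.16 without doublet removal, 0.10 and 0.17 at Leiden resolution 0.5, 0.12 and 0.083 without the 50 most abundant genes in the total, and 0.12 and 0.18 over clusters, an alternative chosen after seeing the data. It was 0.13 in Gli1 knockout cells under the stricter cell filter and 0.16 in wild-type cells when clustering kept cell cycle genes. The log2 ratio of Gli1 knockout over wild type, with JAK2V617F and with JAK2WT, was -0.024 and 0.058 without doublet removal, -0.0099 and 0.065 at Leiden resolution 0.5, 0.053 and -0.081 with equal class weights, -0.25 and -0.031 without standardisation, and 0.00035 and 0.057 over clusters. With JAK2WT it was 0.054 under the stricter filter and 0.0021 without the 50 most abundant genes, and with JAK2V617F 0.020 when clustering kept cell cycle genes. The median member ratio of JAK2V617F over JAK2WT in Gli1 knockout cells was 0.048 without doublet removal, 0.17 without standardisation and 0.16 at a minimum of 50 CPM; in wild-type cells it was 0.41 without standardisation and -0.040 with equal class weights. Between genotypes it was -0.20 with JAK2V617F without standardisation and -0.084 with JAK2WT with equal class weights. For JAK2V617F over JAK2WT in wild-type cells, the count of genes at least 1.5-fold higher was 8 without standardisation and 2 when clustering kept cell cycle genes, with 1 CPM added or over clusters, and 1 gene was at least 1.5-fold lower with equal class weights. With JAK2V617F 6 genes were at least 1.5-fold lower in Gli1 knockout than in wild-type cells without standardisation. The log2 ratio of the share of cells with at least 5 UMIs among 3000, for JAK2V617F over JAK2WT in Gli1 knockout and in wild-type cells, was 0.12 and -0.035 with equal class weights and 0.10 and 0.30 without standardisation; in wild-type cells it was -0.024 at a limit of 3 UMIs and 0.15 at a limit of 8. For Gli1 knockout over wild type it was -0.20 without standardisation and -0.066 at a limit of 8 with JAK2V617F, and -0.15 with equal class weights and 0.022 at a limit of 8 with JAK2WT. In the other results and alternatives, 166 values moved by less than their counting interval or, for counts, by under 1.5 times. No paired analysis was possible because each group is 1 library with no replicate numbers. Cell classes changed with some settings. A cluster led by F13a1, GMP-like in the main run, was named monocyte-like without doublet removal and had no name at Leiden resolution 0.5. It therefore left the standardised classes in both settings. The ILC-like class changed as well: in both settings it was only the cluster led by Gata3 and Il7r. A cluster led by Il7r and Rora, ILC-like in the main run, had no name without doublet removal. At Leiden resolution 0.5 it did not stand apart, and an unnamed cluster led by Ncr1 and Xcl1 had Il7r among its leading genes. The cause of the shifts in the ratios was not tested. No replicate could be left out, and the spread between mice is unknown, since each library pooled 3. Small classes limit the ILC-like, plasma and erythroid-like values.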

Other observations

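The libraries had been depleted of cells with B220 or CD3, and T cell-like cells numbered 77 and 55 in Gli1 knockout cells with JAK2V617F and with JAK2WT, and 27 and 1196 in wild-type cells. Levels of the S phase set differed within the lymphoid classes. T cell-like cells of the wild-type JAK2WT library fell into 2 clusters. Cluster 27, led by Trbc2, Cd3g and Bcl11b with the recombination gene Dntt, had 5146 CPM over 559 cells, and 82.5% of its thinned cells had at least 5 UMIs of the set among 3000. Cluster 18, led by Ccl5, Cd3d and Cd8b1, had 1829 CPM over 637 cells and 33.7% such cells. In the Gli1 knockout libraries T cell-like cells were nearly all of cluster 18, with 1862 and 938 CPM over 73 and 53 cells with JAK2V617F and with JAK2WT.

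B lineage-like cells differed in the same way. In wild-type cells with JAK2WT, cluster 22, led by the pro-B and pre-B genes Vpreb3, Ebf1 and Igll1, had 4855 CPM over 438 cells. Cluster 12, led by Ms4a1 and Fcmr of later B cells, had 1352 CPM over 260 cells. In Gli1 knockout cells with JAK2V617F, cluster 22 had 7085 CPM over 34 cells.

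Cluster 13 has no name and is led by Xcl1, Ncr1 and Klrk1. Its summed level of the set was 1947 and 1375 CPM in Gli1 knockout cells with JAK2V617F and with JAK2WT (221 and 86 cells), and 1069 and 2124 CPM in wild-type cells (45 and 56 cells). The wild-type JAK2WT library was the highest, as in ILC-like cells. Its G2 and M genes summed to 1161 and 480.1 CPM in Gli1 knockout cells with JAK2V617F and with JAK2WT, and to 437 and 6165 CPM in wild-type cells.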
